A study of Homo sapiens with 4 samples.

Results

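Long non-coding RNA features with several intervals and moderate counts were examined in the small RNA of vesicles from HT29 cells, a human line established from a colon cancer. A feature is 1 entry of the deposited count table, with 1 or more genome intervals, its exons or loci. The members were chosen by 3 conditions: the annotation types the feature as lncRNA, it has several intervals, and its counts sum to between 100 and 999 over the 4 libraries. Of 155642 features, 606 were members, after 2 of the 608 that met the conditions had been left out by name. They were drawn from 31600 lncRNA features with several intervals and a count.

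The libraries were 2 from HT29 cells with a non-targeting shRNA (control) and 2 from HT29 cells with an shRNA against p53. HT29 cells carry a mutant form of p53, a transcription factor and tumour suppressor, and both groups share that background. Cells were at passages 5 to 15, and fragments of 18 to 40 nt were selected, so counts on these longer RNAs are of fragments. The sources used here do not give whether the replicates were separate cultures or the cells single clones. The p-values then measure only how far these libraries differ, which may be technical. In vesicle RNA, fewer vesicles of a kind and less of an RNA in each cannot be told apart.

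Long non-coding RNAs are transcripts without a recognised long open reading frame, and they include antisense transcripts, divergent transcripts of promoters, intergenic RNAs and spliced variants at coding genes. Many are held in the nucleus on chromatin, while others act in the cytoplasm, and some serve as hosts of snoRNAs. Small extracellular vesicles are membrane-bound particles released by cells that carry protein and RNA, much of the RNA as fragments of longer transcripts.

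A read was counted for a feature only where no other feature lay, strand ignored. Of 66527 features without such bases of their own, 0 had a count. The own bases are therefore the part of a member that was measured, and sense and antisense reads were not separated. In 94 members the own bases form a single stretch. Stretches were kept for printing only if they had 18 to 300 bases, lay outside UTRs and could be read from a GENCODE 29 transcript. Among those kept, 11 held all own bases of a member, so these 11 are short by selection. From these 11, 5 are shown here, chosen after their values were seen. They show how short the measured part of a long feature can be. Capitals mark the own bases, and lower case marks bases of the same exon that other features also cover. The positions of the capitals (GRCh38) are chr17:247632-247687 on the minus strand for RPH3AL, chr4:112515385-112515430 on the plus strand for AC023886.1, chr13:70107213-70107328 on the plus strand for ATXN8OS, chr4:100486861-100487028 on the minus strand for EMCN and chr6:8577268-8577449 on the plus strand for AL591485.1.
RPH3AL: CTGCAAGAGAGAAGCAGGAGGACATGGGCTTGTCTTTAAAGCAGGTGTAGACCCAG
AC023886.1: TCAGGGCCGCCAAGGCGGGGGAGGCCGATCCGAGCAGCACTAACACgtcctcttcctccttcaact
ATXN8OS: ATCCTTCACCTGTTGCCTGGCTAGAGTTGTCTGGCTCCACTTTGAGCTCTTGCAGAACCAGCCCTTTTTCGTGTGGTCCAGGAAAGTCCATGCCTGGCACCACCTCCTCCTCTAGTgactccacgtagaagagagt
EMCN: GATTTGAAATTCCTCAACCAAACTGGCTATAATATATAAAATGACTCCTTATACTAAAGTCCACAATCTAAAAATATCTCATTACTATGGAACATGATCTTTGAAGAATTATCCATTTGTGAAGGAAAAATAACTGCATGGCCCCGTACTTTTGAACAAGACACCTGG
AL591485.1: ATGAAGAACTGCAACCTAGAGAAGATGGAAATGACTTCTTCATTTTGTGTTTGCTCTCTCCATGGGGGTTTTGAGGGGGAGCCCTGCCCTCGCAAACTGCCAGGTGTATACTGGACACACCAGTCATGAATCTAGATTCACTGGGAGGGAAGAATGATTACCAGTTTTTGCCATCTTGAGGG

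These stretches had the following counts. The RPH3AL feature, a non-coding variant at the gene of a Rab effector of exocytosis, had 34 and 158 counts in control 1 and 2 and 236 and 148 in p53 shRNA 1 and 2. All of them fell on 56 bases, the highest density among the members (10290 counts per kb of own sequence). AC023886.1 had 8, 0, 81 and 116 counts in the same order of libraries, on 46 bases. ATXN8OS, the antisense RNA of the spinocerebellar ataxia type 8 locus, had 20, 38, 162 and 122 counts on 116 bases. EMCN, the gene of the endothelial sialomucin endomucin, had 27, 38, 219 and 125 counts on 168 bases. AL591485.1 had 9, 0, 157 and 1 counts, so that 1 library, p53 shRNA 1, held nearly all. After scaling for depth, the groups overlapped for RPH3AL and AL591485.1, while both p53 shRNA libraries lay above both controls for AC023886.1, ATXN8OS and EMCN. None of the 5 had an unadjusted p under 0.05.

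Total counts were 1099694 in control 1, 938754 in control 2, 2611032 in p53 shRNA 1 and 1940942 in p53 shRNA 2. The sum that chose the members therefore weighs the p53 shRNA libraries more, since they gave 39.6% and 29.5% of all counts against 16.7% and 14.2% from the controls. Of 16 colon epithelium markers, 8 had a count, summing to 65, 63, 89 and 74 per library. EPCAM, KRT18, CDX2, VIL1, CEACAM5, CEACAM6, CDH17 and GPA33 had no feature. Fibroblast markers summed to 10, 8, 23 and 9 counts and blood markers to 0, 1, 2 and 0.

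The members held 1.18% of the counts of control 1 (95% Wilson interval 1.16 to 1.20) and 2.32% of control 2 (2.29 to 2.35). They held 2.41% of p53 shRNA 1 (2.40 to 2.43) and 2.64% of p53 shRNA 2 (2.61 to 2.66). The intervals cover counting error only. The group means were 1.75% ± 0.803 and 2.53% ± 0.158 (SD, n = 2), and control 2 lay closer to the p53 shRNA libraries than to control 1. Features over ribosomal genes took most of each library. Outside those 64 features, of which 1 is a member, the shares were 4.97% in control 1, 9.54% in control 2, 9.53% in p53 shRNA 1 and 11.6% in p53 shRNA 2, so the groups overlapped. Because the members were chosen by their summed count, these shares are a description. When each library was first scaled to 1 depth and the same rule applied, 565 features were chosen, 533 of them members, and their shares were 1.72% ± 0.760 and 2.51% ± 0.164.

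At the edges of the abundance range, the features inside and outside looked alike. URS00008B304E (9, 29, 39 and 23 counts) and the feature at TNNI3 (25, 9, 34 and 32), a cardiac troponin gene, sum to 100 and are members. AL356747.1 (5, 25, 34 and 35) and AC136297.1 (16, 5, 52 and 26) sum to 99 and are not. At the upper end, AL159978.1 (37, 192, 212 and 511) sums to 952 and URS0000D5A5D5 (53, 218, 307 and 354) to 932. Just above lay URS0000E61705 (27, 50, 290 and 666, sum 1033) and the feature at DMKN (84, 274, 359 and 323, sum 1040).

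The rule did not use the structure of the members beyond asking for several intervals. Of the 606, 281 had 2 intervals, 128 had 3 and 34 had more than 10, up to 85. The median of 3 intervals, the quartiles of 2 and 4 and the maximum of 85 were the same in all 31600 lncRNA features with several intervals and a count. The number of intervals is therefore not particular to the members. The intervals of each member lay on 1 chromosome, and members lay on 22 chromosomes. Their median exonic length was 2106 bases, against 874 bases for all lncRNA features with several intervals and a count. They spanned a median of 11290 bases. Own bases ran from 25 to 139576, with a median of 1604 against 601 in that wider set. All bases were own in 238 members, and 34 members had at most 300 own bases. Members are not all separate from coding genes: exons of a GENCODE gene covered at least 50% of 312 members, and that gene was protein-coding for 170. LNCipedia was the only source of the annotation for 434.

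The plot of summed counts against own bases describes the members within the range of counts that chose them, so no relation between length and abundance can be read from it.

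**Figure D1:**
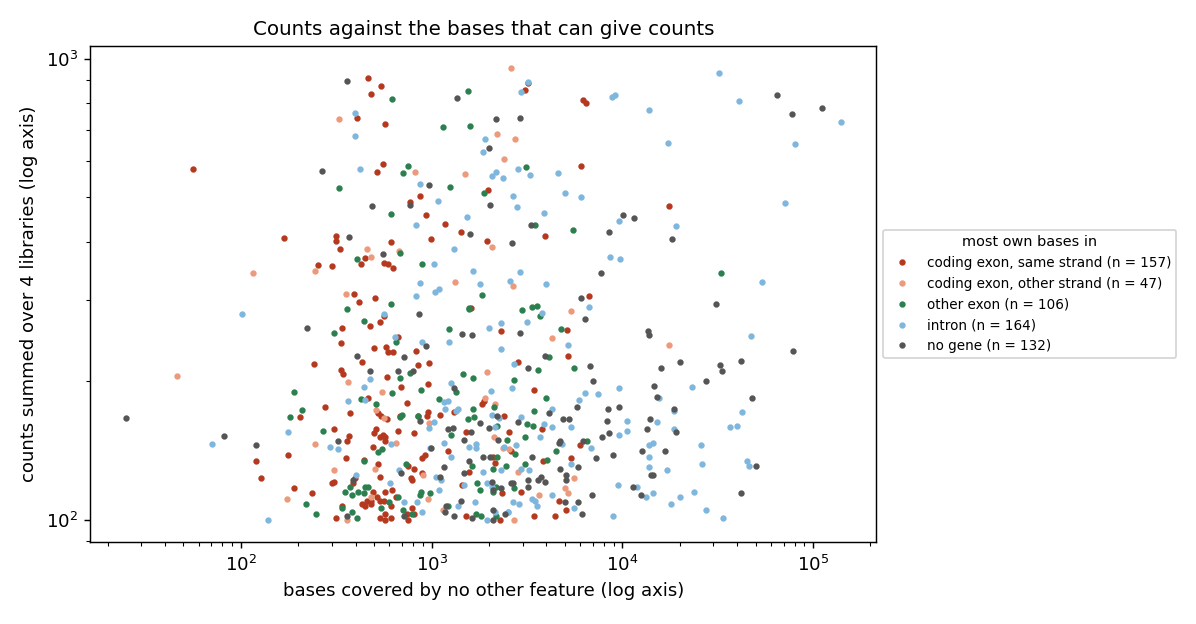
Each point is 1 of the 606 members, with its own bases (covered by no other feature) on the x axis and its counts summed over 4 libraries on the y axis, both log axes; colours give what held most of its own bases. Pearson r of the log10 values is 0.0717, and members of all 5 kinds spread over most of the count range that chose them.

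Over the members, log10 own bases and log10 summed count had a Pearson r of 0.0717 (n = 606 members, a range limited by the rule, and members share libraries). Counts per kb of own sequence had a median of 130 and ran from 2.61 to 10290. The 241 members with less than 1 kb of their own had a median of 368 counts per kb, and the 71 with more than 10 kb had 9.07. Those 71 held 66.0% of all own bases of the members and 12.8% of their counts. The rule bounds the sum, so a longer member has a lower density by construction.

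By position, 157 members had most own bases in exons of a coding gene on the same strand, with a median of 260 counts per kb of own sequence. Another 47 lay mostly in coding exons of the other strand (244 counts per kb), 106 in exons of other genes (174), 164 in introns (76.1) and 132 outside GENCODE genes (46.6). Reads of either strand were counted, so the reads on the first 2 kinds may belong to the coding gene, which was not tested. Genes of small RNAs lay within the own bases of 8 members. Among them, the member holding the serine tRNA gene TRS-GCT4-1 had 45, 12, 117 and 28 counts, and that holding the aspartate tRNA gene TRD-GTC1-1 had 23, 20, 54 and 7. The member with the tyrosine tRNA genes TRY-GTA4-1 and TRY-GTA7-1 had 27, 10, 100 and 28 counts. In all 3, p53 shRNA 1, the deepest library, held the most counts, and the groups overlapped in TRS-GCT4-1 and the tyrosine genes. The other 5 hold pseudogenes of 5S, U6 (2 members) and U1 RNA and of 7SK.

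The comparison asks how vesicle RNA differs between cells with an shRNA against p53 and control cells. All members had a count in p53 shRNA 1, and 601, 577 and 602 had one in control 1, control 2 and p53 shRNA 2. Of the 606, 582 passed edgeR's filter on low counts (about 6.58 CPM in at least 2 libraries). In the filter, CPM are reads scaled by library total, whereas the CPM printed for members are scaled for the effective size of each library. The printed CPM can therefore not be compared directly with the filter minimum. Of the 24 that did not pass, 23 were highest in p53 shRNA 1 and 1 in p53 shRNA 2. Among the 582, 37 had both controls and 2 had both p53 shRNA libraries under that minimum, so their direction was fixed by the filter. In edgeR's quasi-likelihood test, with Benjamini-Hochberg adjustment over 2780 features, 0 members passed an adjusted p of 0.05, and 0.0% of all features did. The smallest adjusted p was 0.122. The DESeq2 Wald test called 2 members, against 1.04% of all features, and limma voom called 0.

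At an unadjusted p under 0.05, 27 members were higher with p53 shRNA (4.64% of those tested), where 4.35% of all features were, and 8 were lower (1.37%), where 7.81% of all features were. The share of higher members was near the background and that of lower members below it. Most of the 27 had both controls under the filter minimum, so the filter fixed their direction. The same holds for 2 of the 8, with both p53 shRNA libraries under it. Both p53 shRNA libraries lay above both controls in 172 members (29.6%, against 22.9% of all features) and below both in 66 (11.3%, against 18.6%). The median log2 change was 0.34, with quartiles of −0.62 and 1.25, against a median of 0.05 for all features. These counts moved with the choice of members: at equal depth, 13 of 556 tested features were higher and 14 lower, and the median log2 change was 0.11. They also moved with single libraries. Without control 1, 99 members were higher and 24 lower (8.67% and 5.89% of all features in that fit). Without control 2 these numbers were 11 and 10 (2.63% and 6.05%), without p53 shRNA 1, 21 and 6 (2.43% and 2.23%), and without p53 shRNA 2, 48 and 2 (4.05% and 1.79%). Scaling by library totals gave 64 higher and 5 lower (11.1% and 6.12% of all features), and moved the median of all features from 0.05 to 0.49 and that of the members to 0.77.

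**Figure D2:**
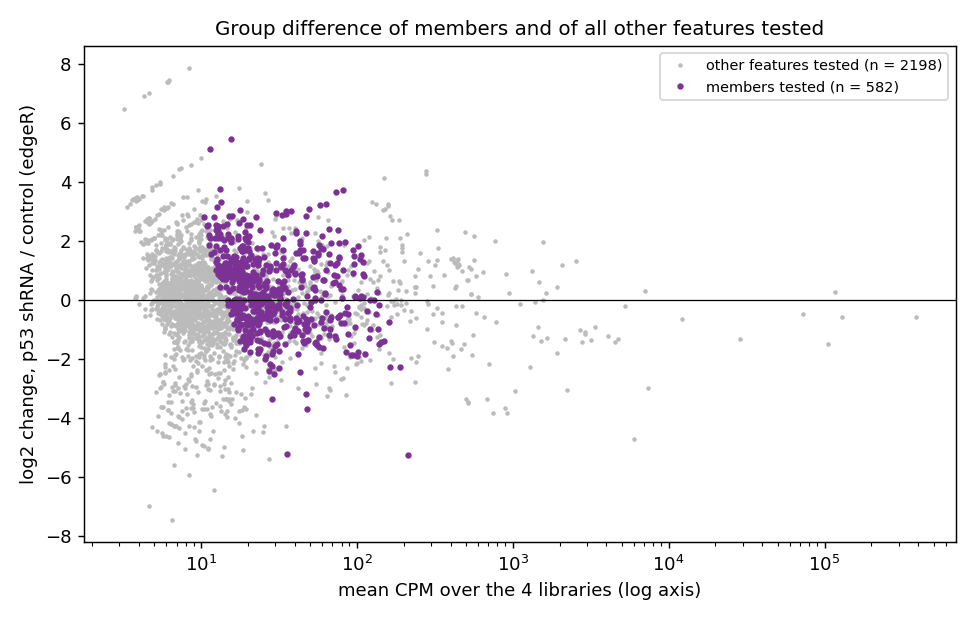
The log2 change between p53 shRNA and control from edgeR (y axis) is plotted against mean CPM over the 4 libraries (x axis, log scale) for the 582 members tested (purple) and the other 2198 features tested (grey). The members occupy a band of mean CPM set by the rule, and their changes run from −5.26 to 5.47 around a median of 0.34.

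**Figure D3:**
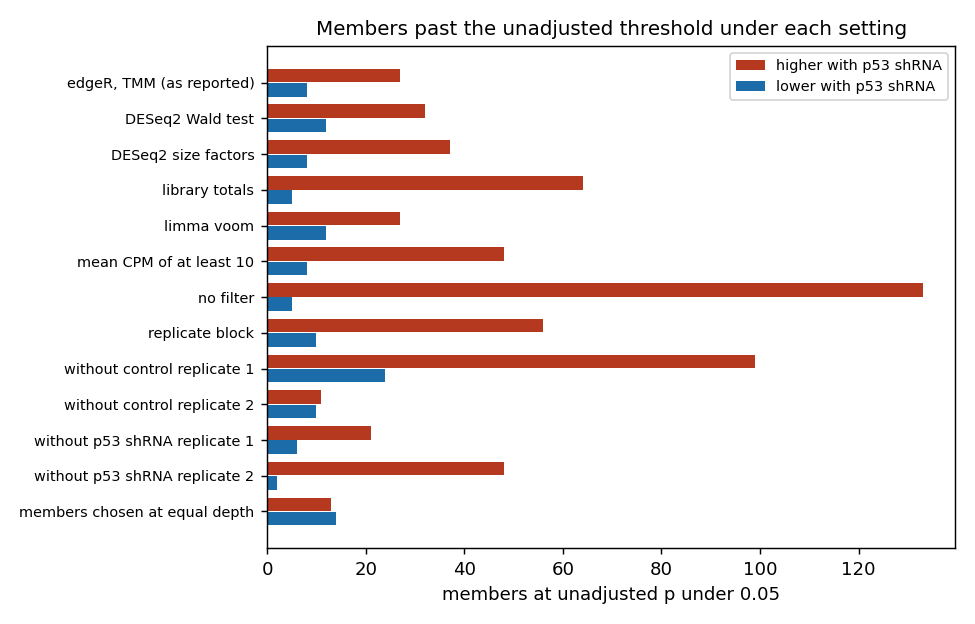
Bars give the number of members at an unadjusted p under 0.05, higher (red) or lower (blue) with p53 shRNA, under each setting on the y axis. The number higher runs from 11 without control 2 to 133 with no filter on low counts, and members chosen at equal depth give 13 higher and 14 lower.

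The 2 controls differed more from each other than the 2 p53 shRNA libraries did. The median absolute log2 ratio between the 2 controls was 1.30 over the members tested, and that between the 2 p53 shRNA libraries was 0.54. The median absolute log2 change between groups was 0.97. It compares groups of 2 libraries each, so it is not directly comparable with a ratio of single libraries. Over all features the same 3 values were 1.20, 0.58 and 0.88. Across members, log2 CPM had a Pearson r of 0.307 for the pair of controls, 0.241 for the pair of p53 shRNA libraries and −0.0184 to 0.383 for pairs across groups. The values over all features were 0.651, 0.747 and 0.517 to 0.695. The rule narrows the range of the members, and members share their libraries, so these values are descriptions.

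Lower with p53 shRNA, with no overlap of the groups, were 7 members named by the smallest unadjusted p. For 2 of them, URS00008B8023 and URS0000D583FD, both p53 shRNA libraries lay under the filter minimum, so the filter fixed their direction. URS00008B8023, in an intron of the antisense gene Z93930.2 (chromosome 22, 28831151 to 28831928), had 43 counts in control 1, 76 in control 2, 3 in p53 shRNA 1 and 6 in p53 shRNA 2. Its means were 69.4 ± 8.38 and 1.82 ± 1.06 CPM (SD, n = 2), a log2 change of −5.21 (SE 0.39, edgeR adjusted p = 0.122). The controls lay close together and far above both p53 shRNA libraries, and the log2 change stayed from −5.70 to −4.61 in the 4 fits that each left out a library. LINC00623 (chromosome 1, 120913328 to 121001622) had the highest mean CPM of the members. Its 623 own bases (121001000 to 121001622) lie in an exon of LINC00623 and within the pseudogene AC241377.2 on the other strand, so reads of near-identical copies are uncertain. It had 147, 616, 24 and 30 counts in the same order of libraries, or 414 ± 278 and 10.7 ± 3.03 CPM (log2 change −5.26, SE 0.79, edgeR adjusted p = 0.122). Control 2 was the higher by far of the controls, and both p53 shRNA libraries were low. Under the cap on the raw sum, a mean CPM this high is reached more readily with more from the controls, so the rule bears on the direction of LINC00623. These 2 are the members that the DESeq2 Wald test called, with adjusted p of 0.00263 for URS00008B8023 and 0.00124 for LINC00623.

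The other 5 lower members had smaller differences. URS0000D583FD, outside GENCODE genes on chromosome 19 (36280099 to 36285394), had 44 and 40 counts against 16 and 10 (52.3 ± 17.9 and 5.00 ± 1.01 CPM, log2 change −3.36, edgeR adjusted p = 0.154). URS0000EF3D68 on chromosome 6 (170088022 to 170097234), also outside genes, had 34 and 43 counts against 20 and 24 (log2 change −2.40, edgeR adjusted p = 0.319). In both, each control had more reads than each p53 shRNA library even before scaling, although the controls were the smaller libraries. URS00008BD1F1 on chromosome 12 had 18 and 145 counts against 24 and 23, and URS00008BF74D on chromosome 2 had 16 and 156 against 36 and 2. For both of these the difference rested largely on control 2: the log2 change of −3.20 of URS00008BD1F1 was −1.38 without it, and that of −3.68 of URS00008BF74D was −1.68.

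The seventh, URS00007BE6D3, has 21 intervals between 8197620 and 8454792 on chromosome 21, in the region of the ribosomal RNA genes, and 2498 of its 3978 own bases lie in exons of FP671120.1. It had 69, 46, 32 and 37 counts (73.7 ± 39.7 and 13.7 ± 3.13 CPM, log2 change −2.42, edgeR adjusted p = 0.383). Ribosomal RNA genes exist in many near-identical copies, and copies can share reads. One of its own stretches (chr21:8224347-8224438, plus strand) is shown because a feature of that region could be taken for ribosomal RNA.
FP671120.1: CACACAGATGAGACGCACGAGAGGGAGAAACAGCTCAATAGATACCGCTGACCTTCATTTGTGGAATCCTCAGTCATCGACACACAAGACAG

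Higher with p53 shRNA, with no overlap, were another 7. All 7 had both controls under the filter minimum and passed only through the p53 shRNA libraries, so their direction was fixed by the filter and is a description. URS00008B3452, outside GENCODE genes on chromosome 10 (2061845 to 2071097), had 0, 1, 93 and 28 counts. With the counts of each group pooled, the p53 shRNA level was 39.8 times the control level (95% exact counting interval 7.01 to 1585). The interval covers counting error only, not the spread between replicates. The fitted log2 change of 5.13 (edgeR adjusted p = 0.122) was between 4.26 and 8.45 with a library left out. ADAMTS10, a secreted metalloprotease of the extracellular matrix, was the member with the closest replicates among these: its 754 own bases lie in its exons and had 2, 2, 75 and 52 counts (log2 change 3.31, SE 0.23, edgeR adjusted p = 0.150). SPRY1, a feedback inhibitor of growth factor receptors, had 1, 0, 149 and 18 counts on 849 exonic bases, so p53 shRNA 1 held most of them. The change of SPRY1 was 5.46 (edgeR adjusted p = 0.131) and 3.55 without p53 shRNA 1.

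The remaining 4 had most of their own bases in introns. URS0000D5B170, in AC079917.1 on chromosome 11 (42001722 to 42085458), had 1, 2, 25 and 96 counts. On pooled counts the level with p53 shRNA was 13.3 times that of the controls (95% exact counting interval 4.43 to 65.2, counting error only). Here p53 shRNA 2 held most of the counts, and the fitted log2 change of 3.77 was 2.50 to 4.57 with a library left out. URS0000D58ADE, on the strand opposite to YY1 on chromosome 14 (100221114 to 100238621), had 3, 3, 88 and 51 counts (3.70 ± 1.03 and 26.7 ± 6.77 CPM, log2 change 2.85). YY1 is a zinc finger transcription factor, and 30 of the 13812 own bases lie in its exons. URS00008B4F07, in AC138123.1 on chromosome 12 (93126052 to 93130704), had 4, 2, 70 and 71 counts (3.94 ± 2.77 and 27.7 ± 3.84 CPM, log2 change 2.85). URS0000EEE7BB, opposite to the potassium channel gene KCNH8 on chromosome 3 (19389185 to 19702795), had 2, 3, 29 and 75 counts (2.96 ± 0.0151 and 21.3 ± 15.4 CPM, log2 change 2.81). The adjusted p of these 4 in edgeR's test ran from 0.166 to 0.257. All 7 higher members had at most 4 counts in either control, so their folds rest on few control reads.

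**Figure D4:**
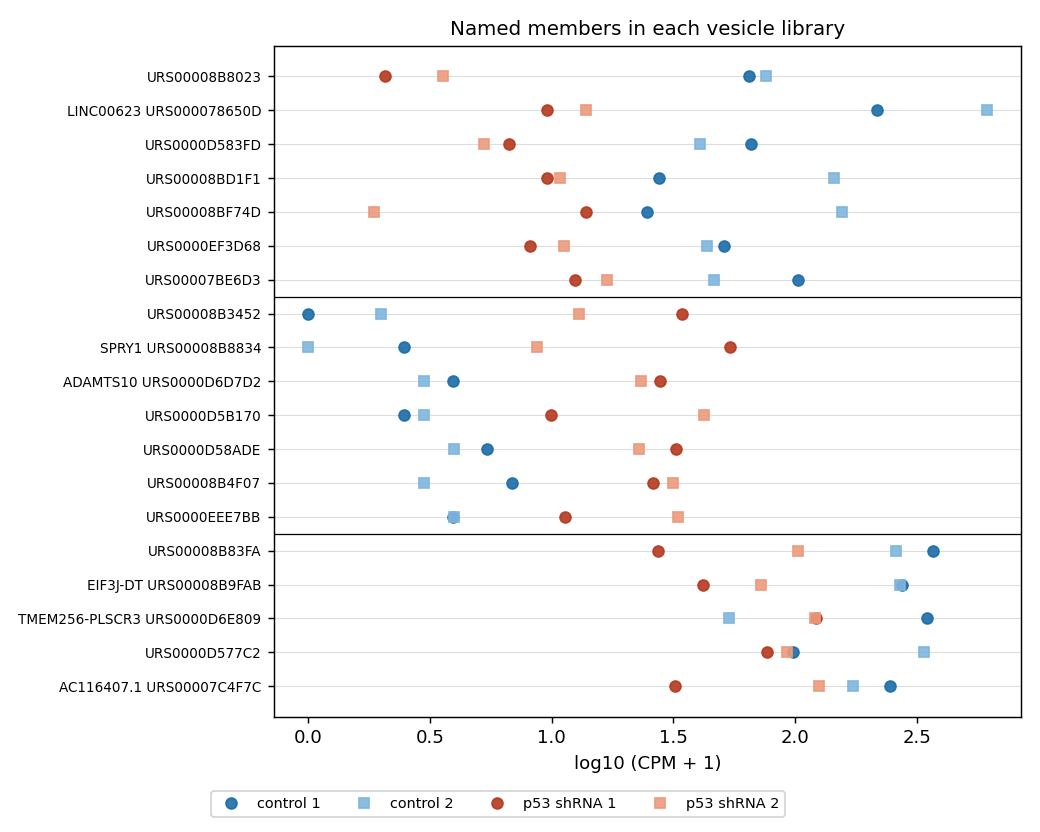
Points give log10 (CPM + 1) of each library for 19 named members, with the 7 lower members at the top, the 7 higher members in the middle and the other members of highest mean CPM at the bottom. The groups do not overlap in the upper and middle blocks, as the rule asked, and of the 5 in the lower block they overlap in TMEM256-PLSCR3.

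Over all 35 members at an unadjusted p under 0.05, the 27 higher ones had at most 17 counts in a control and log2 changes of 2.10 to 5.47. The 8 lower ones had at most 37 counts in a p53 shRNA library and changes of −5.26 to −2.40. The adjusted p ran from 0.122 to 0.405 for the higher and to 0.385 for the lower. Among the other higher members, named after their values were seen, several lie in exons of coding genes. IPPK, an inositol phosphate kinase, had 3, 3, 52 and 56 counts, with close replicates in both groups. SMPD3, the neutral sphingomyelinase known for its part in vesicle release, had 6, 7, 63 and 221 counts (log2 change 2.89, SE 1.02, edgeR adjusted p = 0.297). MCC, a gene near APC named for its mutations in colorectal cancer, had 4, 2, 141 and 32 counts (log2 change 3.06, SE 1.07, edgeR adjusted p = 0.273). FBLN5, an elastic fibre protein, had 3, 1, 68 and 28 counts, and the zinc transporter SLC30A3 had 4, 1, 67 and 30. In SMPD3 the higher library was p53 shRNA 2, and in MCC, FBLN5 and SLC30A3 it was p53 shRNA 1. In IPPK, MCC, FBLN5 and SLC30A3 both controls lay under the filter minimum, so the filter fixed their direction. By position, 8 of 149 tested members in coding exons of the same strand were higher and 0 lower, 2 and 0 of 46 in coding exons of the other strand, 6 and 3 of 100 in other exons, 6 and 1 of 161 in introns, and 5 and 4 of 126 outside genes, where 4.35% of all features tested were higher and 7.81% lower. Of the 149, 8 is near that background.

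Besides LINC00623, 5 members were named for the highest mean CPM. Their higher mean in the controls is no finding. The rule caps the raw sum, to which the p53 shRNA libraries gave most counts, so a mean CPM this high is reached more readily with more from the controls. The cap bears most on LINC00623, the member of highest mean CPM, so its direction is not free of the rule either. URS00008B83FA on chromosome 13 (76879044 to 76895844), with 385 of 1355 own bases in an exon of KCTD12, had 248, 262, 74 and 238 counts (313 ± 75.2 and 64.3 ± 53.5 CPM, log2 change −2.28, edgeR adjusted p = 0.499). The feature at EIF3J-DT, the divergent transcript of the gene of a translation initiation factor subunit, had 186, 272, 114 and 166 counts. Its 327 own bases (chromosome 15, 44537135 to 44537461) include 207 in an exon of EIF3J on the other strand and 0 in GENCODE exons of EIF3J-DT. The controls of this feature lay close together, at 272 ± 3.49 CPM against 56.0 ± 21.5 (log2 change −2.28, SE 0.39, edgeR adjusted p = 0.464). AC116407.1, antisense to the mitochondrial GTPase gene RHOT1, had 165, 174, 87 and 290 counts, with both p53 shRNA libraries below both controls in CPM (log2 change −1.42, edgeR adjusted p = 0.703). One of its 2 own stretches (chr17:32143025-32143135, minus strand) is shown as that of a member with a high mean CPM.
AC116407.1: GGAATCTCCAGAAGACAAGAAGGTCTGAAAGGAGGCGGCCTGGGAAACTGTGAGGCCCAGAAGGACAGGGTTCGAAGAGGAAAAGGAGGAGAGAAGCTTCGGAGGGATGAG

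In the other 2 the controls disagreed. The readthrough feature TMEM256-PLSCR3, counted on 463 bases in exons of the scramblase gene PLSCR3, had 236, 53, 338 and 279 counts. Its controls lay at 348 and 52.5 CPM, on either side of the p53 shRNA libraries at 121 and 120, and the log2 change of −0.73 turned to 1.05 without control 1. URS0000D577C2, on the strand opposite to PDCD4, whose protein inhibits translation initiation, had 66, 342, 212 and 214 counts. Its log2 change of −1.38 was −0.08 without control 2.

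Some members with a mean CPM above the members' median had group means that were nearly equal. URS0000D587EE on chromosome 7, with 64599 own bases, had 62, 152, 302 and 317 counts and 121 ± 41.8 and 122 ± 19.8 CPM. URS0000D5C702 on chromosome 5 had 20, 79, 99 and 169 counts and 53.9 ± 34.5 and 53.9 ± 26.2 CPM. URS0000D58DB4, opposite to the stress granule gene CAPRIN1 on chromosome 11, had 71, 13, 193 and 114 counts. URS0000EF3846 on chromosome 6 (52577588 to 52596559), which most of its length places at TRAM2-AS1, had 170, 6, 688 and 30 counts. Its 358 own bases lie outside GENCODE genes, so these are no measure of TRAM2-AS1 itself. In this member both first replicates were high (251 and 246 CPM) and both second replicates low (5.94 and 12.9 CPM), so the log2 change of 0.02 had an SE of 3.30 and ran from −3.09 to 4.23 with a library left out. Equal means in these members do not show that the groups are alike.

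Some members were concentrated in 1 library. Over all 606, the highest CPM was in control 1 for 97, control 2 for 170, p53 shRNA 1 for 189 and p53 shRNA 2 for 150. Of the members tested these were 16.7%, 29.2%, 28.5% and 25.6%, and of all features tested 30.9%, 23.9%, 23.6% and 21.7%. In 60 members 1 library held over 70% of the CPM summed over libraries, and that library was p53 shRNA 1 in 42, p53 shRNA 2 in 11, control 2 in 6 and control 1 in 1. Among features that passed the filter, 6.19% of members and 4.10% of all 2780 had such a library. In 9 members it held over 90%, and in all 9 it was p53 shRNA 1. The largest was URS0000D5A5A6, with 12, 4, 749 and 9 counts. The feature at OTOF, the gene of the synaptic vesicle protein otoferlin, had 6, 2, 344 and 3 counts. AC011467.3 had 118 counts in p53 shRNA 1 and 0 in each of the others, and LINC02167 had 0, 3, 149 and 4. The others were URS00008B3355 (2, 0, 150 and 0), the features at C1orf147 (1, 2, 124 and 2), RNF166 (1, 1, 140 and 6) and DUSP11 (2, 0, 102 and 2), and AC091544.5 (2, 0, 116 and 0). p53 shRNA 1 was also the deepest library, so a member seen in it alone reaches the sum of 100 more readily than one seen in a control alone.

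**Figure D5:**
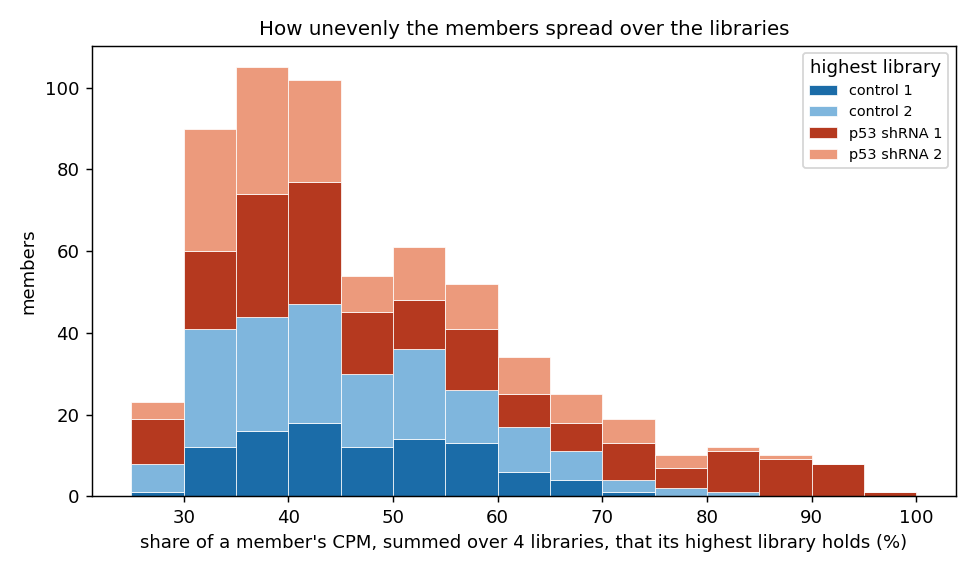
Members are counted by the share of their CPM, summed over the 4 libraries, that their highest library holds (x axis, in bins of 5 percentage points), with colours for that library. Shares of 30% to 45% are most frequent, and the 9 members above 90% are all highest in p53 shRNA 1.

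Genes of lists chosen for this tissue and treatment were almost absent among the members. Of 13 lncRNA genes known to respond to p53, 30 snoRNA hosts, 16 nuclear and housekeeping non-coding RNAs and 18 lncRNAs known from colon cancer or vesicles, 0 named a member. Their features summed to 12, 19, 46 and 28 counts for the p53-responsive genes and to 48, 15, 132 and 86 for the snoRNA hosts. The nuclear and housekeeping genes summed to 15, 7, 52 and 42, and those of colon cancer or vesicles to 9, 23, 62 and 46. All list sums were higher in p53 shRNA 1 than in any other library, which is the deepest. From these 4 lists 1, 2, 0 and 1 features passed the filter, and 0 had an unadjusted p under 0.05 or passed the adjusted threshold. Of the colon epithelium features 3 passed the filter, and 0 passed after adjustment. The 1 at MUC2 had an unadjusted p under 0.05 and was lower with p53 shRNA. The features of MUC2 summed to 6 and 11 counts in p53 shRNA 1 and 2, under the filter minimum in both. The filter therefore fixed its direction. From the fibroblast and blood lists 0 features passed the filter. Members lay on 2 marker genes. The feature of KRT20, a keratin of differentiated intestinal epithelium, had 24, 13, 49 and 35 counts on 307 own bases (24.1 ± 15.9 and 16.3 ± 1.77 CPM, log2 change −0.55, edgeR adjusted p = 0.875). The shorter of its 2 own stretches (115 bases, chr17:40884796-40884910, minus strand) is shown as a part of what was measured at the colon marker.
KRT20: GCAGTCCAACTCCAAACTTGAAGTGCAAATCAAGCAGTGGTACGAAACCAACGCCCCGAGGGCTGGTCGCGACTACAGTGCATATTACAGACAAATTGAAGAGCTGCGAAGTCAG

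The other, URS0000D6DD0D on chromosome 10, has 646 of its 23215 own bases in an exon of the fibroblast marker VIM and most others in introns, and it had 15, 35, 95 and 49 counts (28.4 ± 8.87 and 27.5 ± 9.14 CPM, log2 change −0.05). For both members the groups overlapped, and the sign of the change turned when a single library was left out.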

How the data were processed

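Small RNA libraries of vesicle RNA were grouped by their labels, 2 per group. The authors deposited raw counts, whole numbers of reads per RNAcentral feature. The submitters' processing notes name the GRCh38 build, BWA 0.7.17, Subread 1.6.3 and bcl2fastq 2.19. The rule that assigned reads to features is not stated in them; the counts show that reads on bases of several features were left out. Members and lists were chosen with earlier results of these data known. A check of the knockdown is not reported here.

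Library totals were 938754 to 2611032. edgeR 4.0.16 (R 4.3.3) fitted the whole table as deposited, with TMM factors of 0.637 to 1.25, its filter with a minimum count of 10, and Benjamini-Hochberg adjustment over 2780 features. CPM are scaled by the same factors, except in the filters on low counts, where they are on library totals. SEs given beside log2 changes were computed from the replicate spread of log2 CPM with a prior count of 2. Replicate ratios are on log2(CPM + 1). Genes were assigned with bedtools 2.31.1 and GENCODE 29, and a gene named a feature where its exons covered at least 50%. Sequences are from GENCODE 29 transcripts. A genome sequence was not used here, so GC content was not compared.

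Members were named by rule: up to 7 per direction with the smallest unadjusted p, no overlap and at least 10 CPM in the higher group, the 6 of highest mean CPM, 4 with the smallest change, and those on listed genes. Others were chosen after their values were seen. On simulated counts with 200 of 2780 features changed (3 runs), the test recovered 93.1% of 4-fold and 100% of 16-fold changes at a dispersion of 0.01, and 2.92% and 21.2% at the fitted dispersions. Alternatives were DESeq2 1.42.0 size factors and Wald test, limma 3.58.1 voom, library totals, other filters, the replicate block, each library left out, and members chosen at equal depth.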

Additional observations from a re-analysis of the deposited data

How the results depend on the processing

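With 2 libraries per group and controls that differ widely, the 0 calls at the adjusted threshold do not exclude large differences, and members with few control counts have imprecise folds. Of the members, 27 were higher (most with a direction fixed by the filter) and 8 lower at an unadjusted p under 0.05. The median log2 change was 0.34. On library totals these values were 64, 5 and 0.77, and 26 members in place of 66 lay below both controls. They were 133, 5 and 1.16 with no filter on low counts, where the median of all features was 1.38. At a mean CPM of at least 10, 48 were higher and the median was 0.51. Members chosen at equal depth gave 13, 14 and 0.11. With a library left out, the number higher ran from 11 to 99, the number lower from 2 to 24 and the median from 0.21 to 0.71; the lone library of a group was then assumed to vary like the other group. The DESeq2 Wald test called 2 members after adjustment. Outside ribosomal genes the mean shares were 7.25% and 10.6%. The cause of these shifts was not tested, except that other filters test other numbers of features.

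The replicate numbers could not be taken as pairs, with 2 numbers alone and no label that ties them. Same-numbered libraries deviated together (correlation 0.374 over the members tested). With the replicate number as a block, 56 members were higher and the median log2 change was 0.42. The adjusted threshold was passed by 5 of 582 members, against 3.71% of all features. They were URS00008B8023, LINC00623, URS0000D583FD, URS00008B3452 and SPRY1. All but LINC00623 passed the filter only through the group where they were higher, so the filter fixed their direction. The direction of LINC00623 is not free of the rule, since the cap on the raw sum bears on a member of such high mean CPM.

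Of 275 values of 25 named members under the alternatives, 250 kept their direction and 25, in 7 members, changed sign. TMEM256-PLSCR3 went to 0.03 on library totals, 0.28 with no filter, and from −1.40 to 1.05 with a library left out (1.05 without control 1). URS0000D5C702 went to 0.30 on library totals, 0.10 with voom, 0.02 at a mean CPM of at least 10, 0.67 with no filter, 0.07 with the block, and ran from −0.65 to 1.03 with a library left out (above 0 without control 2 and, at 0.48, without p53 shRNA 1). URS0000D587EE went to −0.04 with the DESeq2 Wald test and with DESeq2 size factors and ran from −0.44 (without control 1) to 0.56 with a library left out. For URS0000D58DB4 that range was −0.71 to 2.04, with −0.71 and −0.06 without control 2 and p53 shRNA 1, and for URS0000EF3846 it was −3.09 to 4.23, with −0.89 and −3.09 without the same libraries. URS0000D6DD0D went to 0.29 on library totals, 0.06 at a mean CPM of at least 10, 0.68 with no filter, and ran from −0.49 to 0.45 with a library left out (0.43 and 0.45 without control 2 and p53 shRNA 2). KRT20 went to 0.06 on library totals, 0.36 with no filter, and ran from −0.99 to 0.19 with a library left out (0.19 without control 1).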
